A study of Mus musculus with 4 samples.

Results

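Of the 8 genes for apoptotic cell uptake examined here, the pair Mfge8 and Itgb5 gave a much higher signal in macrophages from mammary tumors than in macrophages from remodeling mammary glands, whether or not the array was labelled Ets2-deficient. Markers of mammary epithelium, which also makes Mfge8, were far brighter on the same tumor arrays (summed linear signal 11709 to 22854, against 646 to 1007 on the remodeling arrays), and their part in these differences was not tested. Mertk, Pros1, Itgav and Elmo1 differed by less than 0.5 log2 in all 4 comparisons in their brightest probe set, Axl by up to 0.67 log2, and Tyro3 stayed near the background of every array. None of the 7 that were bright enough to be counted differed 2-fold with the Ets2 label. Of all counted genes, 2.99% did in tumor and 6.48% in remodeling macrophages. With 7 genes this is near those shares and is not read as a result about them. The genes were Mertk, Axl, Tyro3, Pros1, Mfge8, Itgav, Itgb5 and Elmo1, chosen by symbol with every probe set that names one of them. They are 8 of the 12393 genes with a probe set that names a single gene, and have 16 of the 22690 probe sets on the array.

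The tumor macrophages came from early-stage mammary tumors of mice carrying the polyoma middle T oncogene (PyMT), and the remodeling macrophages from normal mammary glands of females without tumor. The 4 groups were tumor Ets2-deficient (both copies of Ets2 deleted), tumor Ets2-expressing, remodeling Ets2-deficient (both copies deleted) and remodeling Ets2-expressing, with 1 RNA sample and 1 array each. The tumor Ets2-expressing sample is titled wild type, but its source label gives it 1 copy of Ets2, whereas the remodeling Ets2-expressing sample is labelled wild type. Ets2 is a DNA-binding regulator of the ETS family. In all 4 groups macrophages carried YFP, by which they were sorted. The promoter of the YFP, the agent of the deletion, the age of the mice and the number of animals per sample are not given in the sources used here.

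Dying cells expose phosphatidylserine on their surface, and macrophages take them up through bridging proteins that bind this lipid on one side and a receptor on the other. Protein S (Pros1) and its relative Gas6 bridge to the receptor tyrosine kinase family of Tyro3, Axl and Mertk, though not each of them to every receptor. MFG-E8 (Mfge8), named for the milk fat globules on which it was found, bridges to integrins with the alpha-v chain (Itgav) such as alpha-v beta-5 (Itgb5). Elmo1 acts downstream with Dock1 to switch on the small GTPase Rac, which drives the membrane around the dying cell. Involuting and remodeling mammary glands shed many dying epithelial cells, and Mfge8 is produced by mammary epithelium as well as by macrophages.

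Each group has a single array, so differences are given without a test. Values are log2 expression values. A gene was counted in a comparison if its value on the brighter of both arrays reached that array's median, and called if the difference was at least 1 log2, that is 2-fold. Array medians ran from 5.98 to 6.30 and 25th percentiles from 4.27 to 4.32. Correlations between arrays ran from 0.968 to 0.987 (Pearson, across probe sets, which are not independent). The spread between bright probe sets of 1 gene, the only error at hand, had a median SD of 0.157 to 0.253 over the 4 comparisons and covers neither animals, sorts nor amplification. The Ets2 probe set stayed bright on both arrays labelled Ets2-deficient (12.67 in tumor and 12.97 in remodeling macrophages) as on the Ets2-expressing arrays (12.77 in tumor and 13.24 in remodeling), and the labels do not say whether it lies in the deleted part. Of 15 macrophage markers, 14 lay above the median on every array, the exception being Itgam, which encodes the integrin CD11b, and their summed linear signal was nearly level, between 79234 and 80949. The Actb control probes at the 3' end were brighter than those at the 5' end by 3.30 to 3.54 log2 on the tumor arrays, against 2.72 to 2.96 on the remodeling arrays. Gapdh went the same way (2.27 to 2.45 on tumor against 1.61 to 1.80 on remodeling arrays) and Tfrc the other (5.03 to 5.27 on tumor against 5.75 to 5.96 on remodeling arrays). The part of this measure of RNA integrity and amplification in the results was not tested.

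Promoter sequence is shown for Mfge8 and Itgb5, the genes that moved together between settings, and for Mertk, a receptor with a level signal. Each run is the 250 bases before the RefSeq start on build GRCm38.p6, 5′ to 3′ on the strand of the gene. Capitals mark GGAA, the core that ETS factors bind, on either strand (read as TTCC on the other).
Mfge8, chr7:79149061-79149310, minus strand: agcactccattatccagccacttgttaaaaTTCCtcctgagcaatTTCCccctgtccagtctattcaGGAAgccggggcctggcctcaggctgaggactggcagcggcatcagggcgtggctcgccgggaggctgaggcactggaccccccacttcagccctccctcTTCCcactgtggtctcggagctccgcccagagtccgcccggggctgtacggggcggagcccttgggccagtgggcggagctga
Itgb5, chr16:33829415-33829664, plus strand: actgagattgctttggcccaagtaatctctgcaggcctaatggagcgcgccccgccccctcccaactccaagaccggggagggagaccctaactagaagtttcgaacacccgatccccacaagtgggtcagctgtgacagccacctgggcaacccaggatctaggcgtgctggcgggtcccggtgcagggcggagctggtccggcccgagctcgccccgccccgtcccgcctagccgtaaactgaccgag
Mertk, chr2:128698665-128698914, plus strand: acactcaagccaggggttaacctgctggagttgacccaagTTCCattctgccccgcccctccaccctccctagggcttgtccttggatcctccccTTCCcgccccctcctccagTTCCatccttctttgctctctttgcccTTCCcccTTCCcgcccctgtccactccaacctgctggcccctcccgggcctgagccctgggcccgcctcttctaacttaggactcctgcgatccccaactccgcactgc
GGAA occurred 4 times in the Mfge8 window, 0 times in the Itgb5 window and 5 times in the Mertk window. It was present in 8 of the 9 windows of the 8 genes (Elmo1 has 2 starts) and in 93.4% of all 32851 promoter windows of this length. The longer match CCGGAA, which contains GGAA, was in 0 of the 9 windows and in 12.0% of all windows. The STAT motif TTCNNNGAA, which can overlap GGAA, was in windows of 2 genes, Elmo1 and Pros1, and in 7.02% of all windows. These are matches of letters in a fixed window and say nothing of binding.

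Among the bridging proteins, Mfge8 was far brighter on the tumor arrays, while Pros1 was bright and nearly level. Mfge8 (1 probe set) had 11.26 log2 in tumor Ets2-deficient, 10.97 in tumor Ets2-expressing, 8.72 in remodeling Ets2-deficient and 9.12 in remodeling Ets2-expressing macrophages. Both tumor values lay above both remodeling values, the lowest tumor value being 1.85 log2 above the highest remodeling value. The tumor minus remodeling difference was 2.54 log2 (5.80-fold) on the Ets2-deficient arrays and 1.85 log2 (3.61-fold) on the Ets2-expressing arrays. Of the genes counted in these comparisons, 157 of 7203 and 131 of 7253 had a larger positive difference than Mfge8. In bulk samples such as these, fewer cells of a type and less RNA per cell cannot be told apart.

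Pros1, the anticoagulant cofactor protein S, had 12.94 log2 in tumor Ets2-deficient, 12.86 in tumor Ets2-expressing, 13.11 in remodeling Ets2-deficient and 13.18 in remodeling Ets2-expressing macrophages. Both tumor values lay just below both remodeling values. The tumor minus remodeling difference was -0.17 log2 on the Ets2-deficient arrays and -0.31 on the Ets2-expressing arrays, close in size to the spread between probe sets, and kept its sign under 3 other scalings. Gas6, the other ligand of the receptor kinases, had 9.87 log2 in tumor Ets2-deficient, 10.55 in tumor Ets2-expressing, 10.26 in remodeling Ets2-deficient and 10.39 in remodeling Ets2-expressing macrophages. It was lowest on the tumor array labelled Ets2-deficient, with a difference of -0.68 log2 from the Ets2-expressing tumor array and -0.13 between the remodeling arrays.

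Mertk and Axl were bright on every array, and Tyro3 was dim on every array. Mertk differed little between groups, while Axl was modestly higher on both tumor arrays. Mertk, the receptor most tied to clearance of dying cells by resident macrophages, had 10.24 log2 in tumor Ets2-deficient, 10.07 in tumor Ets2-expressing, 10.66 in remodeling Ets2-deficient and 10.22 in remodeling Ets2-expressing macrophages. The remodeling Ets2-deficient array was the highest and the other 3 lay within 0.17 log2 of each other, so the settings overlapped. The tumor minus remodeling difference was -0.42 log2 on the Ets2-deficient arrays and -0.15 on the Ets2-expressing arrays. Axl, which binds Gas6 most tightly and is known for induction under inflammation, had 10.11 and 10.06 log2 on the Ets2-deficient and Ets2-expressing tumor arrays, against 9.44 and 9.45 on the matching remodeling arrays. Its tumor values were higher by 0.67 and 0.61 log2, past 1.5-fold (as were 15.9% and 16.9% of counted genes) but not 2-fold, and the arrays of 1 setting lay within 0.06 log2 of each other. Its second probe set was dim on every array (3.83 to 4.38) and differed by 0.34 and 0.55 log2 in the same direction. Tyro3, the family member best known from brain, could not be told from background: its 2 probe sets ran from 3.89 to 4.56, near the 25th percentile of every array, so no difference of Tyro3 is read.

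The integrin chains that bind MFG-E8 behaved unlike each other. Itgb5, the beta-5 chain, was brighter on both tumor arrays in each of its 4 probe sets. The brightest probe set had 11.11 log2 in tumor Ets2-deficient, 10.65 in tumor Ets2-expressing, 8.76 in remodeling Ets2-deficient and 8.02 in remodeling Ets2-expressing macrophages. The lowest tumor value was 1.89 log2 above the highest remodeling value. The tumor minus remodeling difference of this probe set was 2.35 log2 (5.10-fold) on the Ets2-deficient arrays and 2.63 log2 (6.19-fold) on the Ets2-expressing arrays. Of the genes counted in these comparisons, 184 of 7203 and 47 of 7253 had a larger positive difference. Over all 4 probe sets, each bright on every array, the difference was 2.36 ± 0.23 log2 on the Ets2-deficient arrays and 2.48 ± 0.27 log2 on the Ets2-expressing arrays (mean ± SD of 4 probe sets of the same samples, a technical spread). The lowest of these 8 differences was 2.08 log2, so all were much larger than the spread between probe sets.

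Itgav, the alpha-v chain that pairs with several beta chains, was bright and level by comparison. Its brightest probe set had 11.58 log2 in tumor Ets2-deficient, 11.85 in tumor Ets2-expressing, 11.35 in remodeling Ets2-deficient and 11.40 in remodeling Ets2-expressing macrophages. The tumor values were higher by 0.24 and 0.45 log2, but the first of these became -0.08 after centring on array medians. The other 2 probe sets lay below the median on every array and disagreed in direction, 1 with differences of -0.29 and -0.36 and the other with 0.59 and 0.50 log2. Itgb3, the other beta chain known to bind MFG-E8 together with alpha-v, was at background on all 4 arrays (3.88 to 4.26).

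Elmo1, the adaptor that brings Dock1 to Rac, was just above the array medians. It had 7.00 log2 in tumor Ets2-deficient, 6.61 in tumor Ets2-expressing, 7.00 in remodeling Ets2-deficient and 6.79 in remodeling Ets2-expressing macrophages. The settings overlapped, and its second probe set was dim on every array (4.08 to 4.58). Its partner Dock1 had 10.02 log2 in tumor Ets2-deficient, 9.98 in tumor Ets2-expressing, 10.28 in remodeling Ets2-deficient and 10.42 in remodeling Ets2-expressing macrophages. Its tumor minus remodeling difference was -0.26 on the Ets2-deficient and -0.44 log2 on the Ets2-expressing arrays.

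**Figure D1:**
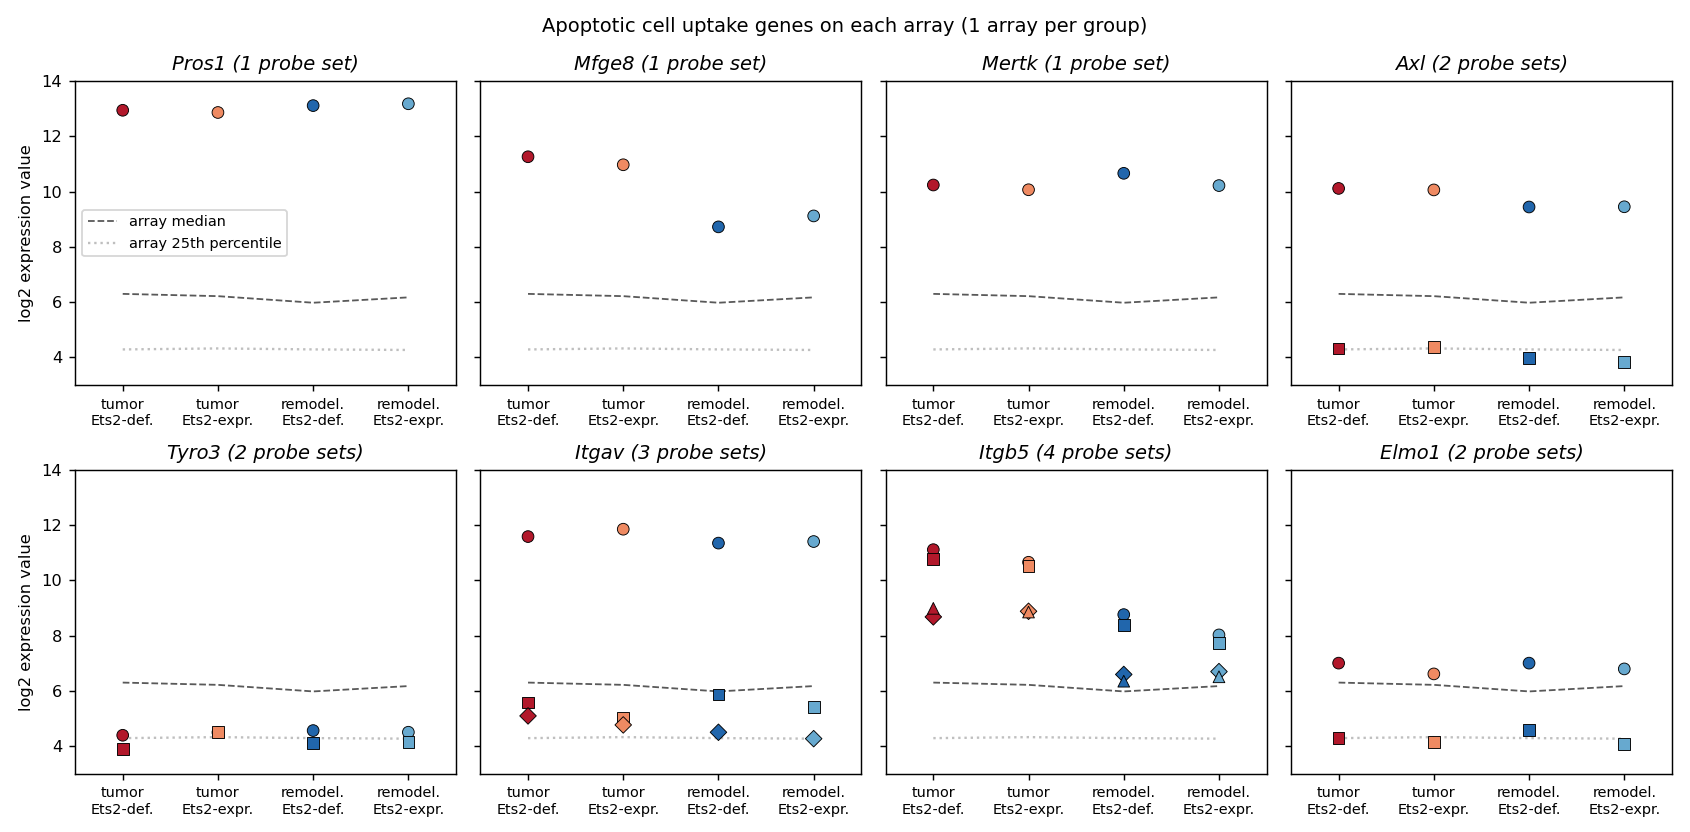
Log2 expression value (vertical axis) of every probe set of the 8 genes on the 4 arrays (horizontal axis), 1 marker shape per probe set, with each array's median dashed and 25th percentile dotted. Mfge8 and all 4 probe sets of Itgb5 stand higher on the 2 tumor arrays, Pros1 and Mertk are nearly level, and Tyro3 lies near the 25th percentile throughout.

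Set against all genes, 2 of the 7 uptake genes that could be counted were called higher in tumor than in remodeling macrophages on the Ets2-deficient arrays, where 7.61% of 7203 counted genes were, and the same 2 on the Ets2-expressing arrays, where 6.18% of 7253 were. None was called lower, against 1.61% and 5.20% of all counted genes. With both labels together, 2.89% of 6990 genes counted in both comparisons were called higher in both. The median over the 8 genes was 0.12 log2 on the Ets2-deficient arrays and 0.22 on the Ets2-expressing arrays, beside 0.01 and 0.07 over all genes, so the list as a whole stood close to the rest and the result is that of 2 genes. At any size of difference, Axl, Mfge8, Itgav and Itgb5 lay higher on both tumor arrays than on both remodeling arrays, as did 31.4% of genes, and Pros1 lay lower, as did 21.4%.

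The comparison by Ets2 label gave no called uptake gene. In tumor macrophages 0 of 7 counted uptake genes differed 2-fold, where 2.99% of 7225 genes did, and in remodeling macrophages 0 of 7, where 6.48% of 7095 did. With 7 genes this is near those shares and is not read as a result about the uptake genes. The Ets2-deficient minus Ets2-expressing differences in tumor macrophages ran from -0.27 (Itgav) to 0.46 log2 (Itgb5), with a median of 0.13 over the 8 genes beside 0 over all genes. In remodeling macrophages they ran from -0.40 (Mfge8) to 0.73 log2 (Itgb5), with a median of 0.03 beside 0.04. At a limit of 1.5-fold, Itgb5 alone was higher in remodeling macrophages, where 6.53% of counted genes were, but its probe sets disagreed. In remodeling macrophages the 2 brightest differed by 0.73 and 0.64 and the other 2 by -0.10 and -0.16 log2, and in tumor macrophages the 4 ran from -0.20 to 0.46. The names of the first 2 end in _x_at, by which the manufacturer marks probes that may also match other transcripts. Mertk was 0.44 log2 higher on the remodeling Ets2-deficient array, and this difference lay between 0.44 and 0.67 under the 4 scalings.

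**Figure D2:**
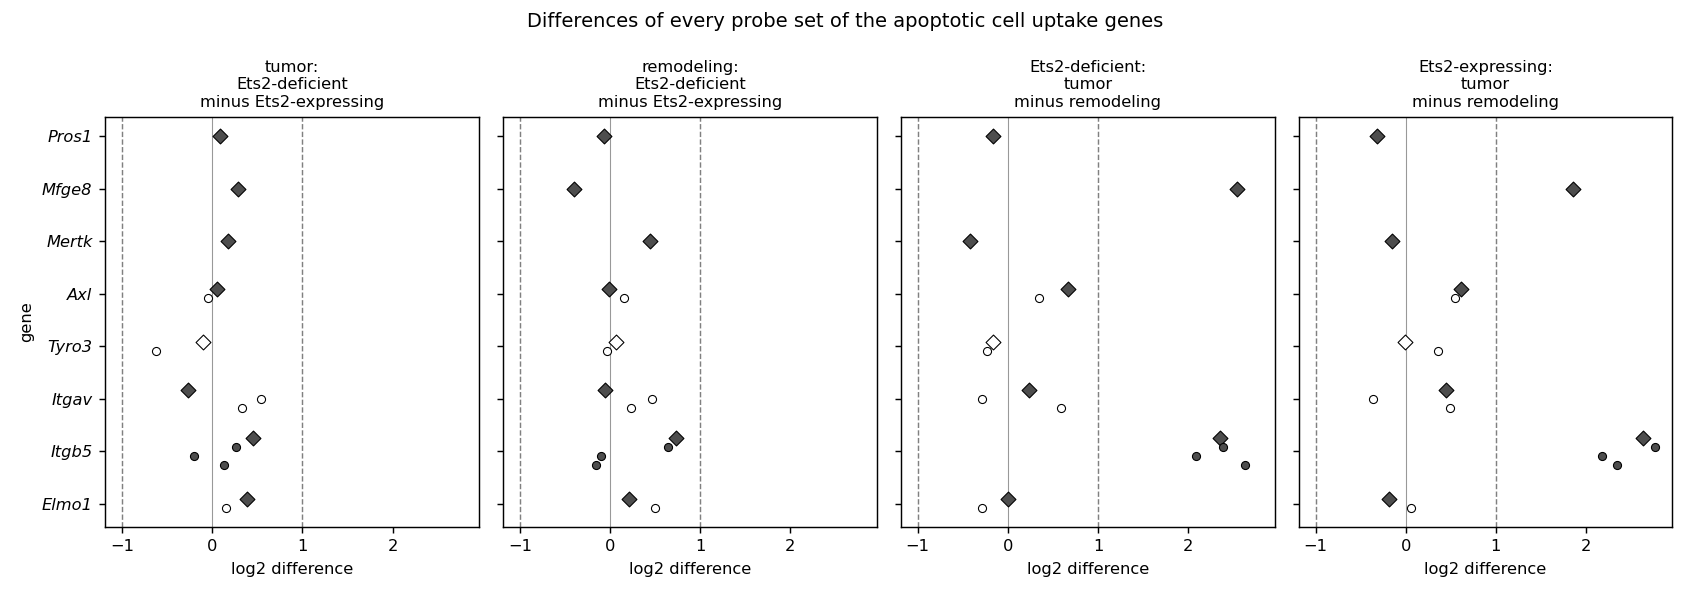
Log2 difference (horizontal axis) of every probe set of the 8 genes (rows) in the 4 comparisons, with dashed lines at 2-fold. Diamonds are the probe set with the highest mean, circles the others, filled where bright enough to be counted. In the Ets2 comparisons all points lie between the 2-fold lines, and in both tumor minus remodeling comparisons Mfge8 and the 4 probe sets of Itgb5 lie past 2-fold.

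Markers of other cells also moved with the setting. The 18 mammary epithelial markers summed to a linear signal of 22854 in tumor Ets2-deficient and 11709 in tumor Ets2-expressing macrophages, against 646 in remodeling Ets2-deficient and 1007 in remodeling Ets2-expressing macrophages. Of these, 17 were called higher in tumor on the Ets2-deficient arrays, where 7.61% of all counted genes were. On the Ets2-expressing arrays 15 were, beside 6.18% of all counted genes. Krt8, a keratin of luminal cells, had 11.39 and 10.50 log2 on the tumor arrays against 5.41 and 5.83 on the remodeling arrays. At or above the array median were 18 of the 18 markers in tumor Ets2-deficient and 16 in tumor Ets2-expressing macrophages, but 3 on each remodeling array. Their part in the Mfge8 and Itgb5 differences was not tested. Between the tumor arrays, 17 of the 18 epithelial markers were higher on the Ets2-deficient one, 7 of them by 2-fold or more, where 2.23% of all counted genes were. The 18 differences had a median of 0.91 log2 and a range from -0.28 (Krt5) to 4.33 log2 (Mucl1).

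Fibroblast markers differed most between the remodeling arrays. The 14 measured ones summed to 15876 in tumor Ets2-deficient, 15410 in tumor Ets2-expressing, 9031 in remodeling Ets2-deficient and 28628 in remodeling Ets2-expressing macrophages, so the highest and the lowest array were both from remodeling glands. All 14 were called lower on the remodeling Ets2-deficient array than on the Ets2-expressing one (median -2.17 log2), where 5.17% of all counted genes were. In tumor minus remodeling, 6 of 13 counted were called higher on the Ets2-deficient arrays, where 7.61% of all counted genes were. On the Ets2-expressing arrays 7 of 14 were called lower, beside 5.20% of all counted genes. Endothelial markers were mostly dim, with at most 2 of 11 above the median of any array and sums between 421 and 716. Lists whose sum put both tumor arrays on 1 side of both remodeling arrays were those of B cells (3744 on each tumor array against 1912 to 3399 on the remodeling arrays), T and NK cells (3722 to 4222 on tumor against 2530 to 2954 on remodeling arrays), adipocytes (1133 to 2976 on tumor against 3400 to 4434 on remodeling arrays) and platelets (5550 to 5773 on tumor against 6974 to 7091 on remodeling arrays). Of their counted members, 0 of 5, 1 of 6, 0 of 2 and 0 of 2 were called higher in tumor on the Ets2-deficient arrays, where 7.61% of all counted genes were. On the Ets2-expressing arrays 1 of 5, 2 of 6, 0 of 2 and 0 of 2 were, beside 6.18% of all counted genes. With so few genes these counts are not read as a result about the lists. The B cell markers did not move together on the Ets2-deficient arrays, where 3 of 6 were higher in tumor (median 0.04 log2). On the Ets2-expressing arrays all 6 were (median 0.93 log2). The adipocyte markers Fabp4 and Car3 were called lower in tumor on the Ets2-deficient arrays (-1.89 and -2.64 log2), where 1.61% of all counted genes were. They were the only 2 of 7 adipocyte markers to reach the median of any array. Among the 5 platelet markers only Pf4 (12.39 to 12.74 log2) and Ppbp (6.79 to 7.46) did. The adipocyte sum therefore rests on 2 genes and the platelet sum almost wholly on Pf4, and neither is read as a shift of a cell type. The part of these lists in the Mfge8 and Itgb5 differences was not tested. Neutrophil, mast cell, dendritic cell and cell cycle sums overlapped between the settings.

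**Figure D3:**
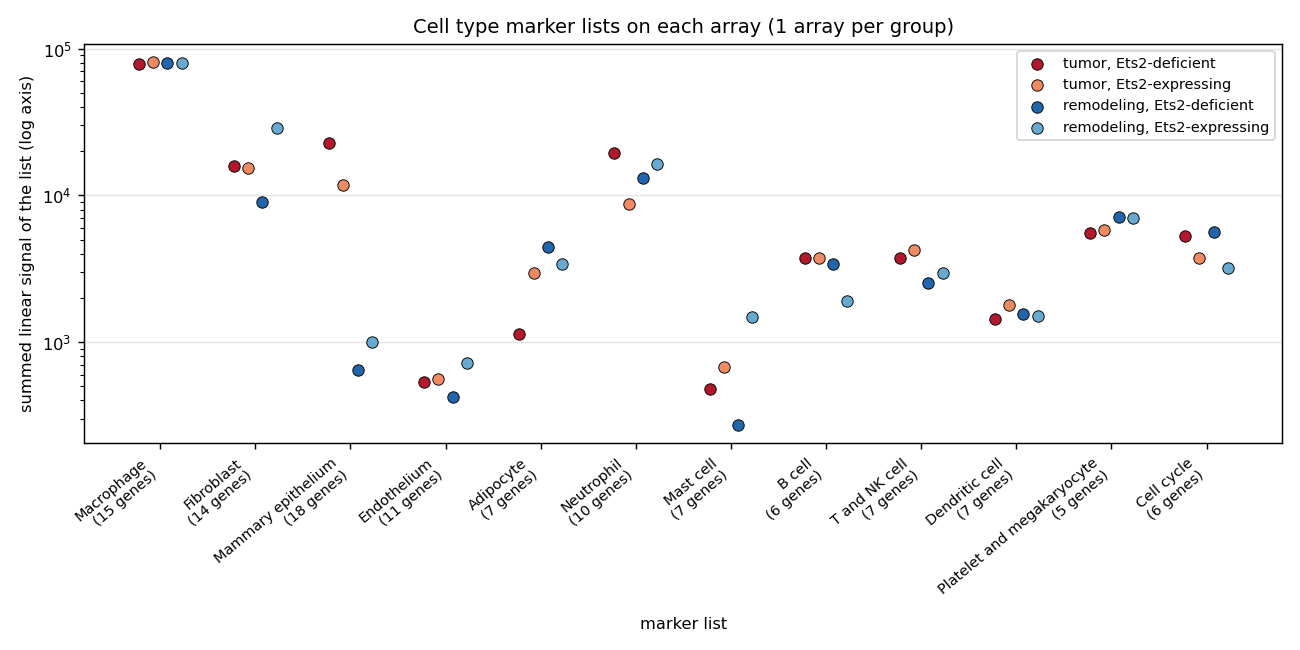
Summed linear signal (vertical log axis) of each marker list (horizontal axis, number of measured genes in brackets) on the 4 arrays, 1 point per array. Mammary epithelial markers are more than 10 times brighter on both tumor arrays than on both remodeling arrays, macrophage markers are level, and fibroblast markers are highest on the remodeling Ets2-expressing array.

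The rest of the clearance pathway, 77 measured genes of 87 in 5 lists, was called between settings about as often as genes in general. On the Ets2-deficient arrays 7 of 59 counted genes (11.9%) differed 2-fold either way between tumor and remodeling macrophages, where 9.22% of all counted genes did, and on the Ets2-expressing arrays 5 of 58 (8.62%) did, where 11.4% did. With the Ets2 label, 2 of 58 were called in tumor macrophages (Dock2 and Thbs1) and 3 of 58 in remodeling macrophages (Ptx3, Thbs1 and Cx3cr1), shares of 3.45% and 5.17% beside the 2.99% and 6.48% of all counted genes given above. Among 11 bridging proteins and opsonins, the complement C1q genes were bright on every array and differed by at most 0.22 log2 between settings. Only Ptx3, a soluble pattern-recognition protein, and Thbs1, a matrix protein that bridges to CD36, were called. The tumor minus remodeling difference of Ptx3 was 2.22 log2 on the Ets2-deficient arrays, where the remodeling value was dim (4.96), and -3.18 log2 on the Ets2-expressing arrays. With the Ets2 label Ptx3 differed by -5.77 log2 in remodeling macrophages (4.96 on the Ets2-deficient against 10.73 on the Ets2-expressing array) and by -0.37 in tumor macrophages. Between settings (tumor minus remodeling) Thbs1 differed by -1.02 on the Ets2-deficient and -3.84 log2 on the Ets2-expressing arrays. With the Ets2 label Thbs1 differed by 1.07 in tumor and -1.75 log2 in remodeling macrophages. Its value barely reached the median on the tumor Ets2-deficient array (6.32, median 6.30). On the tumor Ets2-expressing array it lay below the median (5.25, median 6.22). The second probe set of Thbs1 was dim on every array. Among 17 uptake receptors, Havcr2, which encodes the phosphatidylserine receptor TIM-3, had 8.35 and 8.34 log2 on the tumor arrays against 6.12 and 6.36 on the remodeling arrays (differences of 2.23 log2 on the Ets2-deficient and 1.97 on the Ets2-expressing arrays). Itgax, the CD11c chain of a complement receptor, had 11.24 and 10.88 log2 on the tumor arrays against 9.44 and 8.94 on the remodeling arrays (1.80 on the Ets2-deficient and 1.93 on the Ets2-expressing arrays). Cd36, a scavenger receptor for oxidized lipid on dying cells, was called lower in tumor on the Ets2-deficient arrays alone (-1.26, against -0.31 on the Ets2-expressing arrays), and whether these differ was not tested. Stab2, like Itgb3, was below the 25th percentile on all 4 arrays.

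Of 17 measured engulfment signalling genes, of which 14 or 15 were counted in each comparison, 1 was called between settings and 1 with the Ets2 label. Of all counted genes, 9.22% and 11.4% were called between settings, and 2.99% and 6.48% with the Ets2 label. The small GTPases Rac1, Rac2, Cdc42 and Rhog, switches of the cytoskeleton, differed by at most 0.32 log2 between settings. Elmo3, a relative of Elmo1, was called higher in tumor on the Ets2-deficient arrays (2.25 log2), but from a remodeling value at background (4.18). Dock2, the Rac activator of blood cells, was the only one called with the Ets2 label, at 8.79 log2 in tumor Ets2-deficient against 9.79 in tumor Ets2-expressing macrophages, just past the 2-fold limit. Among 12 genes for find-me and do-not-eat-me signals, Cx3cr1, the receptor for fractalkine, was called higher in tumor with both labels (1.20 log2 on the Ets2-deficient and 2.76 on the Ets2-expressing arrays), while its second probe set was dim on every array and gave 1.33 and -0.04 in these comparisons. Cx3cr1 was also called higher on the remodeling Ets2-deficient array, at 8.99 against 6.77 log2 on the remodeling Ets2-expressing array (2.22), where the second probe set gave -0.13. Cd47 and its receptor Sirpa, the brake on uptake, were not called. Of 20 measured genes for digestion and response, such as the lysosomal Lamp1 and the cholesterol exporter Abca1, 18 were counted in each comparison. None was called in any of the 4 comparisons, where 2.99% to 11.4% of all counted genes were. With 18 genes this is near those shares and is not read as a result about the list.

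**Figure D4:**
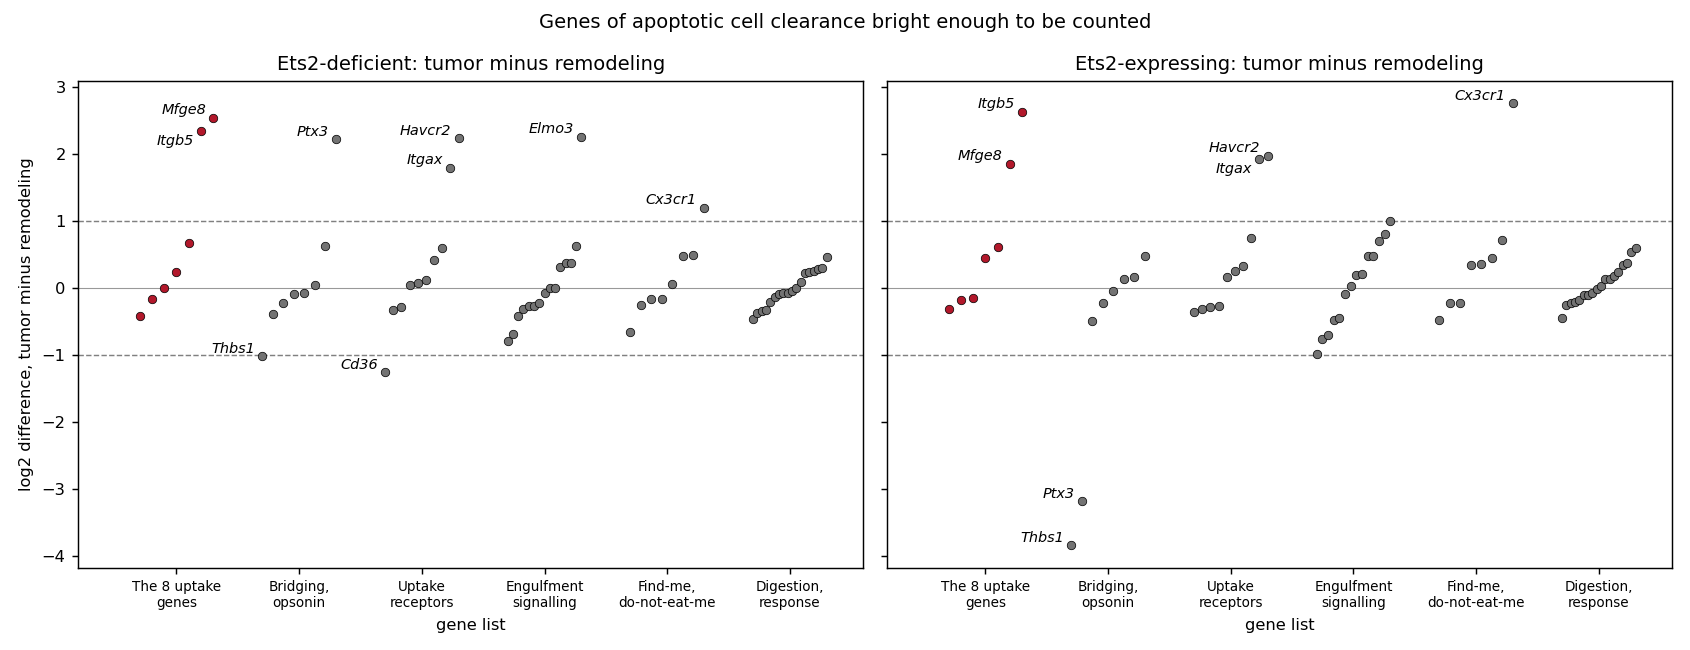
Tumor minus remodeling log2 difference (vertical axis) of the 8 uptake genes (red) and of the genes of 5 further lists (grey) that were bright enough to be counted, for the Ets2-deficient arrays on the left and the Ets2-expressing arrays on the right, with dashed lines at 2-fold. Mfge8, Itgb5, Havcr2, Itgax and Cx3cr1 lie above the upper line in both panels.

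By likeness of profile, measured as the Euclidean distance between log2 values centred on each gene's mean over the 4 arrays, the genes closest to Mfge8 among 7472 were Vsig4 (0.16), Egln3 (0.17) and Pmepa1 (0.24). Those closest to Itgb5 were Pald1 (0.14), Clu (0.19) and Arg1 (0.33). The distance between Mfge8 and Itgb5 was 0.86, with 103 genes closer to Mfge8 and 57 closer to Itgb5. With 4 arrays, such distances describe these samples only.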

How the data were processed

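Macrophages sorted as YFP-positive cells gave 1 RNA sample per group. About 10 ng of RNA was amplified with the NuGEN Ovation system and labelled with biotin, per the labels' protocols, and hybridised to Affymetrix mouse arrays of 22690 probe sets. The deposited values are log2 expression values. GCOS and RMA are listed in the submitters' processing notes, and their versions and order are not given in the sources used here. Values were used as deposited, and 0 sample columns were left out.

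The platform annotation was joined to RefSeq names through Entrez identifiers (0 symbols updated). All 8 genes matched. A gene is represented by its probe set with the highest mean. Differences are Ets2-deficient minus Ets2-expressing, and tumor minus remodeling, on the log2 scale, computed in Python 3.11.15 with pandas 2.3.3. Dim means below the 25th percentile or median as stated. Summed linear signals add 2 to the power of each value. The number of arrays limits the precision, and no test was run. Promoter windows come from RefSeq (GRCm38.p6). Other probe genes' positions are not given. The calling step was run on simulated data to check the code, which says nothing of the error of these arrays.

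The genes and lists were chosen with earlier results of these data known. Besides the 8 genes, up to 4 called members of each list, Gas6, Dock1, Ets2 and the 3 nearest profiles of each called gene are named, and names outside this rule (Itgb3, Stab2, Rac1 and other level genes, and markers) were chosen after values were seen. Alternatives were 3 array scalings, 2 brightness filters, a 1.5-fold limit and other choices of probe set.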

Additional observations from a re-analysis of the deposited data

Results flagged for a closer look

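With 1 array per group, opposite directions are single differences, and whether they differ was not tested. The Ets2-deficient minus Ets2-expressing difference of Mfge8 was 0.29 log2 in tumor and -0.40 in remodeling macrophages, 0.69 apart. That of Cd36 was -0.27 in tumor and 0.68 in remodeling macrophages (-0.94 apart), and its 3 probe sets shared these directions. That of Thbs1 was 1.07 log2 in tumor and -1.75 in remodeling macrophages (2.82 apart). Its tumor values were dim, 6.32 on the Ets2-deficient array (median 6.30) and 5.25 on the Ets2-expressing array (median 6.22). The tumor minus remodeling difference of Ptx3 was 2.22 on the Ets2-deficient and -3.18 log2 on the Ets2-expressing arrays (5.40 apart), and that of Dock2 was -0.21 on the Ets2-deficient and 0.80 log2 on the Ets2-expressing arrays (-1.02 apart).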

How the results depend on the processing

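The calls of Mfge8 and Itgb5 as higher in tumor held with both Ets2 labels under the 3 other scalings. Centring on array medians could not remove them, as these medians lay between 5.98 and 6.30. Neither could the 75th percentile filter, as the tumor values (10.65 to 11.26) lay above the 75th percentiles (8.77 to 8.82). The 1.5-fold limit and the absence of a filter could not remove a call. Mfge8 has 1 probe set. The call of Itgb5 held under 3 other choices of probe set, 2 of which (no _x_at probe sets, and the dimmest bright probe set) were chosen after seeing the data. All 4 of its probe sets differed by at least 2.08 log2, so no such choice could remove it. Over all settings the Mfge8 difference ran from 2.22 to 2.54 log2 on the Ets2-deficient arrays and from 1.76 to 1.87 on the Ets2-expressing arrays, and that of Itgb5 from 2.03 to 2.64 and from 2.18 to 2.65. A count was scored as unchanged if it equalled the reported one or stayed within 1.5 times it. The reported counts were 0 or 2, mostly 0, and several settings could not remove a call, so this score says little of robustness. A rise from 2 to 3 genes at the 1.5-fold limit, where Axl was added, was scored as unchanged. Of 72 counts, 71 were so scored. The exception was the remodeling Ets2 comparison at a 1.5-fold limit, where 1 gene (Itgb5) was higher, against 6.53% of all genes. That call rests on the 2 _x_at probe sets: without them the Itgb5 difference was -0.10 log2 in remodeling and -0.20 in tumor macrophages. Itgav in tumor macrophages turned to 0.20 log2 with the mean of its probe sets. Centring on array medians moved the median of all genes to -0.31 in tumor minus remodeling on the Ets2-deficient arrays and to 0.23 in the remodeling Ets2 comparison. No paired analysis was possible because the groups compared share fewer than 2 replicate numbers, and with 1 array per group no replicate could be left out. A fit of the setting with the Ets2 label as a block, which the 4 arrays would allow, was not run.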
